A study of Mus musculus with 14 samples.

Results

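Kruppel-like factors are transcription factors whose C-terminal zinc fingers bind GC-rich DNA such as the CACCC box and the GC box GGGCGG. 17 genes of the family were looked up in the RNA-seq table of this study, and 10 of them other than Klf5 are described here, Klf2, Klf3, Klf4, Klf6, Klf7, Klf9, Klf10, Klf11, Klf13 and Klf16. They were found by gene symbol, 1 transcript each, among 24016 transcripts. Tests were run on the 14312 transcripts that averaged 1 FPKM or more over the libraries, and all 10 genes passed this filter. The family is split by its N-terminal parts. Klf2, Klf4, Klf5, Klf6 and Klf7 carry mostly activating regions, Klf3 recruits the corepressor Ctbp, and Klf9, Klf10, Klf11, Klf13 and Klf16 bind the corepressor Sin3. In muscle, Klf2 and Klf4 are known as targets of the ERK5 kinase, and Klf3 binds muscle promoters.

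The cells were C2C12, a mouse myoblast line that forms myotubes when serum is lowered. They were transfected in growth medium with control siRNA (siCtrl) or a pool of siRNAs against Klf5 (siKlf5) and then moved to differentiation medium with horse serum, and poly(A) RNA was sequenced on days 0, 1, 2 and 3. No cells without siRNA are among the 8 libraries. Each combination of siRNA and day is 1 library, 8 in all, so no value has a replicate of its own. The 6 ChIP-seq samples of the series were not analysed here. Values are FPKM as deposited, scaled to a matrix total of 10000000, which makes them larger than ordinary FPKM. They are divided by exon length, and levels of different genes are compared on that scale. Whether the 1 transcript used per gene gives the right length was not tested. Recovered depth was between 7850497 reads (siCtrl day 1) and 20301506 reads (siCtrl day 2). The lowest value of a described gene, that of Klf7 in siCtrl cells on day 3, rested on 89 reads. Between day 0 and day 3, 6 of 8 muscle markers rose and 4 of 4 cell division genes fell at a limma adjusted p under 0.05. Of all tested transcripts 12.8% rose and 17.6% fell at that threshold. The muscle markers Myod1 and Myf5, with log2 differences of 0.28 and -0.17, did not pass (limma adjusted p = 0.153 and 0.43). Myh3, embryonic myosin heavy chain, was 4.78 higher on the log2 scale on day 3 than on day 0 (SE 0.12, limma adjusted p = 5.78e-07), and Cdk1 fell by 1.51 (SE 0.12, adjusted p = 9.87e-05). Klf5 itself lay between 224 and 933 FPKM in siCtrl cells and between 35.1 and 211 FPKM in siKlf5 cells. Markers of other lineages were low apart from the adipocyte markers Lpl and Cebpa. Cebpa averaged 13.6 FPKM on day 0 and 35.2 FPKM on day 3 (log2 difference 1.40, SE 0.46, limma adjusted p = 0.0527). Of 4 endothelial markers 1 had a mean of at least 1 FPKM and their summed level was 0.8 to 5.4 FPKM, while 3 macrophage markers summed to 3.2 to 25.1 FPKM and 4 osteoblast markers to 0.0 to 10.3 FPKM, with Ibsp at 0 in every library. The 4 adipocyte markers, led by Lpl with a mean of 142 FPKM, summed to 90.8 to 141.5 FPKM in siCtrl cells and 187.5 to 240.2 FPKM in siKlf5 cells, with Plin1 at 0 in every library. Lpl was 1.07 higher on the log2 scale in siKlf5 cells (SE 0.15, limma adjusted p = 0.0745). The part of these markers in the results was not tested.

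To show the DNA these genes start from, the 250 bases before the start of 4 of them are printed 5′ to 3′ on the mm9 genome. Klf16, Klf6 and Klf9 are the genes that passed a test between days, and Klf3 holds the most CACCC and GGGCGG boxes of the 10. Klf6 and Klf9 passed only between day 3 and day 1, a comparison added after the values were seen. Capitals mark CACCC and GGGCGG on either strand (GGGTG and CCGCCC on the printed one). The marked boxes can overlap.
Klf16 (chr10:80040042-80040291, minus strand): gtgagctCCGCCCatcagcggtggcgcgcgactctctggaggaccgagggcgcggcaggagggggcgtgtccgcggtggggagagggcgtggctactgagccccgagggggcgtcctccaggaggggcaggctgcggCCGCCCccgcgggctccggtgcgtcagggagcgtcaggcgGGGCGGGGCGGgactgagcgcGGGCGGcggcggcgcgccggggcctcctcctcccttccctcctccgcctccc
Klf6 (chr13:5860485-5860734, plus strand): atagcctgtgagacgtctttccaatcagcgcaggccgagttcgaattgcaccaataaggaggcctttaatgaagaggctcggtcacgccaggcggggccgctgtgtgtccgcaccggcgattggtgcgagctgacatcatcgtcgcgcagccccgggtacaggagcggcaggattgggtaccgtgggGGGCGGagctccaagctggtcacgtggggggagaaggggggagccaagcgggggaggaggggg
Klf9 (chr19:23215466-23215715, plus strand): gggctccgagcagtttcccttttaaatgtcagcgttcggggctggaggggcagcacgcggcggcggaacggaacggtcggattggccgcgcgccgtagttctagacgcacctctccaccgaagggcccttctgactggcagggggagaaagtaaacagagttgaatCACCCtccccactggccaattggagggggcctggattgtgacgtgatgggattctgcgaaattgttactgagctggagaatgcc
Klf3 (chr5:65194512-65194761, plus strand): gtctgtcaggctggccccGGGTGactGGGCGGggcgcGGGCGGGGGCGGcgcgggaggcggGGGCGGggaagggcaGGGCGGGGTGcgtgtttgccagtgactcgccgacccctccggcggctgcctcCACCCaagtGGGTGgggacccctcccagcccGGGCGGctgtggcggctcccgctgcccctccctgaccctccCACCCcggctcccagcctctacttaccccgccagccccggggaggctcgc
Klf16 held 5 GGGCGG boxes and no CACCC box, with 79.6% G and C. Klf3 held 6 GGGCGG and 5 CACCC boxes. Klf6 held 1 GGGCGG box and 4 CCAAT boxes, and Klf9 held 1 CACCC box, 3 CCAAT boxes and no GGGCGG box. Over the 10 genes, 9 held GGGCGG, against 58.0% of 10304 promoters of tested genes and 32.9% of 27017 promoters of all genes. CACCC was found in 5 of 10, against 57.2% of promoters of tested genes and 51.3% of all. CANNTG, the E-box that MyoD binds, was found in 7 of 10, against 57.0% and 66.0%, and CCAAT in 5 of 10, against 36.5% and 34.5%. No window held TATAAA, which 6.8% of promoters of tested genes held. Between 59.2% (Klf7) and 79.6% (Klf16) of the bases were G or C, and the median over promoters of tested genes was 59.6%. The promoters used for comparison are RefSeq windows of the same length on GRCm38.p6, while those of the 10 genes lie before the transcript starts of the deposited table on mm9. Both windows had the same letters for 7 of the 10 genes. They differed for Klf3, Klf16 and Klf10. The 10 genes and Klf5 were left out of the promoters used for comparison. These are counts of letters, not of bound sites.

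Klf16, a member of the Sin3-binding group, fell during differentiation. In siCtrl cells Klf16 was at 136, 103, 88.4 and 78.5 FPKM on days 0, 1, 2 and 3. In siKlf5 cells it was at 132, 79.8, 95.2 and 80.1 FPKM. Both day 0 libraries were thus above the 6 later ones. The day 3 mean was 79.3 FPKM and the day 0 mean 134 FPKM, a log2 difference of -0.75 (SE 0.17, 95% interval -1.14 to -0.37, 0.59-fold, limma adjusted p = 0.0117), with a fall in both siRNA groups, of -0.79 in siCtrl and -0.72 in siKlf5 cells. On day 1 the difference from day 0 was -0.56 (SE 0.17, adjusted p = 0.0581), -0.39 in siCtrl and -0.72 in siKlf5 cells, and did not pass the threshold of 0.05. Klf16 was the only one of the 10 that passed between day 3 and day 0. Of all 14312 transcripts tested, 17.6% were called lower and 12.8% higher in that comparison. The median over all transcripts was -0.09, so relative to it Klf16 fell by 0.66. Upper-quartile and median-ratio scaling brought that median to -0.00 and 0.01, and with them 52.1% and 54.4% of the called transcripts were higher, against 42.1% as deposited. Klf16 kept its call with both. All 10 genes are annotated as protein coding. The Klf16 transcript (NM_078477) covers chromosome 10 of mm9 from 80029866 to 80040041 on the minus strand, and the annotation gives it 2 exons.

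**Figure D1:**
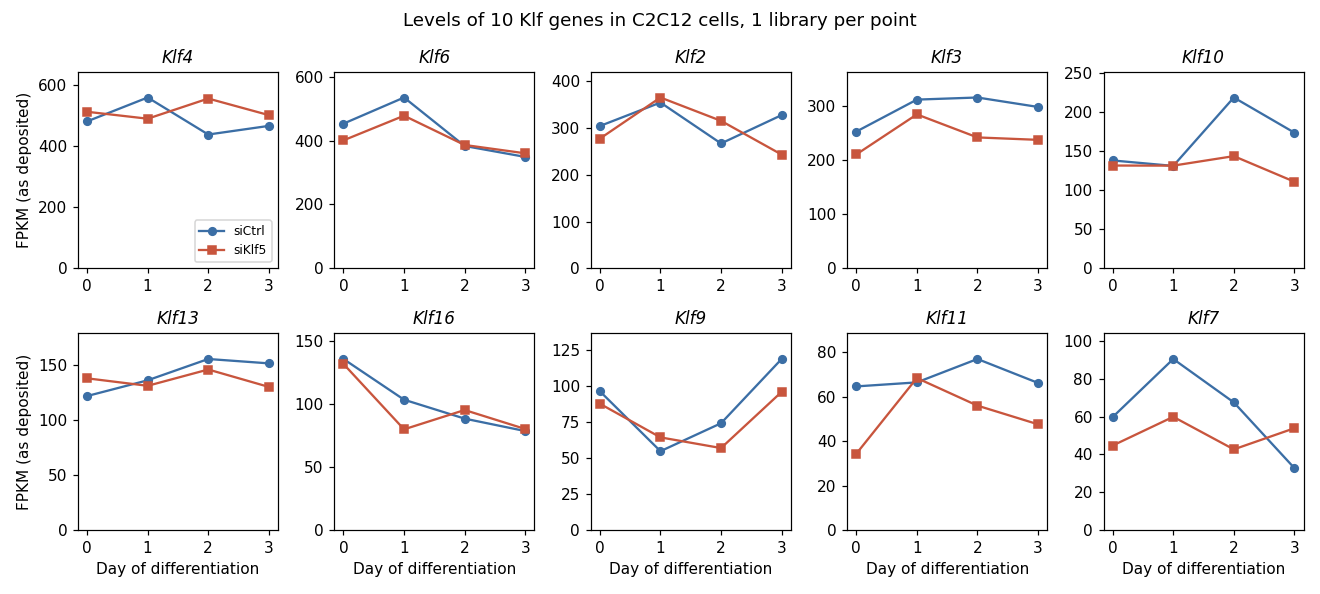
Level of each of the 10 Klf genes (y axis, FPKM as deposited, starting at 0) by day of differentiation (x axis) in siCtrl (blue circles) and siKlf5 (red squares) cells, with 1 library per point and panels ordered by mean level. Klf16 is highest on day 0 with both siRNAs, Klf6 is lowest on days 2 and 3, and Klf9 is lowest on days 1 and 2, while Klf4 and Klf13 vary least, by 1.28-fold between their highest and lowest libraries.

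Klf9 was lowest on days 1 and 2 and rose again by day 3. It is a small Sin3-binding factor known as an early target of glucocorticoid and thyroid hormone receptors. In siCtrl cells Klf9 was at 96.5, 54.8, 74.3 and 119 FPKM on days 0 to 3, and in siKlf5 cells at 87.9, 64.4, 57.0 and 96.1 FPKM. The 4 libraries of days 1 and 2 were all below the 4 of days 0 and 3. Day 1 was lower than day 0 by a log2 difference of -0.63 (SE 0.20, 95% interval -1.08 to -0.18, adjusted p = 0.0646), which missed the threshold. Between day 1 and day 3, a comparison added after the values were seen, Klf9 rose by 0.85 (SE 0.20, 95% interval 0.39 to 1.30, 1.80-fold, limma adjusted p = 0.0476), by 1.12 in siCtrl and 0.58 in siKlf5 cells. In this comparison 3.3% of all transcripts tested were called higher and 2.34% lower. The call did not hold when the day 0 or day 2 libraries were left out (adjusted p = 0.135 and 0.131). On day 3 its level was 0.22 above day 0 on the log2 scale (95% interval -0.24 to 0.67, adjusted p = 0.448).

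Klf6 was highest on day 1 and then fell. It encodes a widely expressed activator with immediate early gene behaviour. Klf6 was at 453, 535, 383 and 349 FPKM in siCtrl cells on days 0 to 3, and at 401, 478, 386 and 360.1 FPKM in siKlf5 cells. In both groups day 1 was the highest and day 3 the lowest. From day 1 to day 3 it fell by 0.51 on the log2 scale (SE 0.11, 95% interval -0.76 to -0.27, 0.70-fold, limma adjusted p = 0.0358). This comparison is the one added after the values were seen. The call was also lost without the day 0 or day 2 libraries (adjusted p = 0.0933 and 0.115). The difference between day 1 and day 0 was 0.25 in the fit (SE 0.11, adjusted p = 0.16) and 0.24 and 0.25 in the siRNA groups. Klf6 and Klf9 were the 2 of 10 genes that passed between day 3 and day 1, in opposite directions.

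Klf3, a repressor that works through Ctbp, was higher on day 1 than on day 0 with both siRNAs. Klf3 was at 253, 313, 316 and 299 FPKM in siCtrl cells on days 0 to 3. In siKlf5 cells it was at 211, 285, 242 and 238 FPKM. Day 0 was the lowest of the 4 days in each group. The day 1 difference was 0.37 (SE 0.11, 95% interval 0.11 to 0.62, 1.29-fold), and with an adjusted p of 0.0572 in limma it did not pass. Taken relative to the median of all transcripts it was 0.46. After upper-quartile or median-ratio scaling, which shift that median from -0.09 to 0.03 or 0.01, the difference was 0.51 or 0.48 and passed (adjusted p = 0.0156 and 0.02). The same scalings turned the split of all calls on day 1 from 40.7% higher to 58.5% and 55.2% higher. With the values as deposited none of the 10 genes was called between day 1 and day 0 in limma, 4 were below an unadjusted p of 0.05 (Klf3, Klf6, Klf9 and Klf16), as were 31.1% of all transcripts tested, and 6.82% of all transcripts tested were called higher and 9.93% lower.

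**Figure D2:**
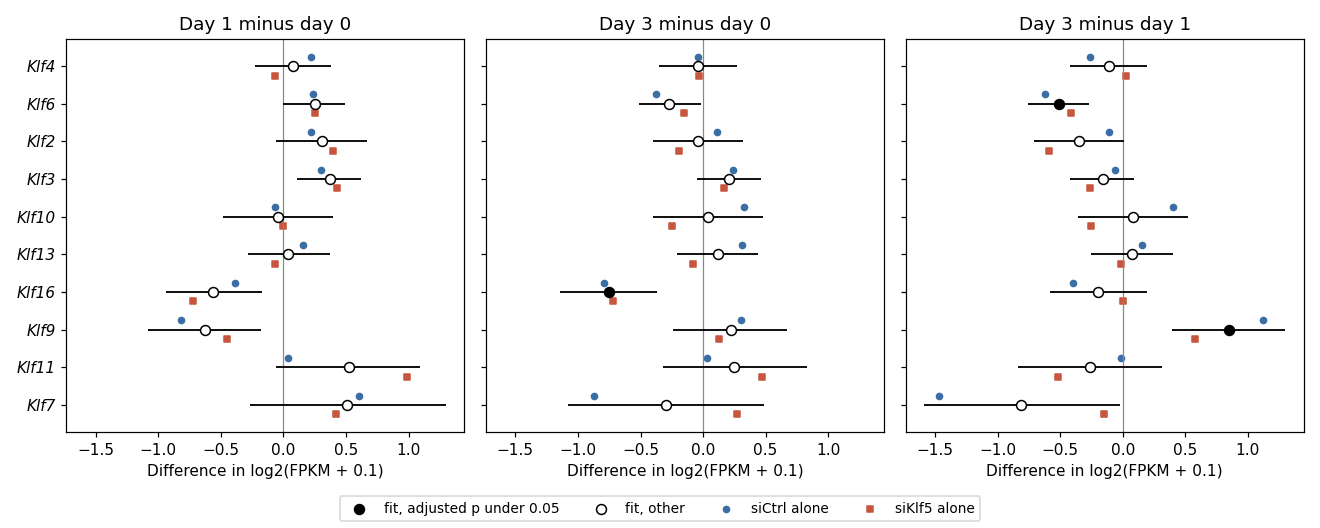
Difference in log2(FPKM + 0.1) between days (x axis) for the 10 genes (y axis). Large circles with bars are the fit over both siRNAs with its 95% interval, filled where the adjusted p was under 0.05, and small blue and red symbols are the differences within siCtrl and siKlf5 cells alone. Klf16 is filled for day 3 minus day 0, and Klf6 and Klf9 are filled on opposite sides of 0 for day 3 minus day 1. The last comparison was added after the values were seen.

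Klf2 and Klf4 gave no call between any of these days. Klf2, an activator that keeps endothelial cells and T cells quiescent, was at 304, 354, 267 and 328 FPKM in siCtrl cells and 277, 365, 315 and 243 FPKM in siKlf5 cells. It was highest on day 1 with both siRNAs, by 0.31 over day 0 (SE 0.16, 95% interval -0.06 to 0.67, adjusted p = 0.229). Klf4, a pluripotency factor, was the highest of the 10 genes in all 8 libraries. Its levels were 482, 560.3, 439 and 467 FPKM in siCtrl cells and 514, 491, 557 and 503 FPKM in siKlf5 cells, which overlap. Its difference between day 3 and day 0 was -0.04 (SE 0.13, 95% interval -0.35 to 0.27), which leaves room for a rise of up to 1.21-fold or a fall to 0.79-fold. Both differences of Klf2 and Klf4 on day 3, -0.04 each, turned to between 0.05 and 0.08 with the other scalings.

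The TGF-beta inducible genes Klf10 and Klf11 and the ubiquitous Klf13 are close relatives that bind Sin3. Klf10 was at 138, 131, 219 and 174 FPKM in siCtrl cells on days 0 to 3. In siKlf5 cells it was at 132, 132, 144 and 111 FPKM. The siCtrl libraries of days 2 and 3 stood above the other 6. Klf11 was at 64.7, 66.5, 77.0 and 66.3 FPKM in siCtrl and at 34.3, 68.5, 56.0 and 47.6 FPKM in siKlf5 cells, where day 0 was the lowest value of all. Klf13 stayed between 122 and 156 FPKM in siCtrl and between 130.1 and 146 FPKM in siKlf5 cells. None of these passed between days. Klf7, an activator best known from neurons, was the lowest of the 10 by mean and varied most. It was at 59.7, 90.4, 67.5 and 32.7 FPKM in siCtrl and 44.6, 59.8, 42.6 and 53.8 FPKM in siKlf5 cells, on 89 to 301 reads. From day 1 to day 3 its difference was -0.81 (SE 0.34, 95% interval -1.59 to -0.02, adjusted p = 0.2).

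The order of levels was stable at its top. Klf4 and Klf6 were first and second of the 10 in all 8 libraries, and Klf2 was above Klf3 in 7. Together these 4 genes made up 67.3% to 75.2% of the summed FPKM of the 10. Klf3, with a mean of 269.7 FPKM, was above Klf10 (147 FPKM) in all 8 libraries. The ranges over the 8 libraries overlapped for every pair of neighbours in this order. Klf10 was above Klf13 (139 FPKM) in 4 of 8 libraries, Klf13 above Klf16 in 7, Klf16 (99.1 FPKM) above Klf9 (81.2 FPKM) in 6, Klf9 above Klf11 (60.1 FPKM) in 5, and Klf11 above Klf7 (56.4 FPKM) in 5. The ratio of the highest to the lowest library was between 1.28 (Klf4 and Klf13) and 2.77 (Klf7), with a median of 1.63. Over the 9777 transcripts that averaged 30 FPKM or more the median was 1.74. That ratio was over 2 in 3 of the 10 genes (Klf7, Klf9 and Klf11), and in 34.5% of those transcripts.

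The sum of the 10 genes lay between 1862.6 and 2344.4 FPKM, a 1.26-fold range over 8 libraries, while Klf5 moved from 9.5% to 31.1% of all Klf FPKM in siCtrl cells from day 0 to day 3. Ranked by FPKM among the Klf genes, Klf5 was at rank 5 in siCtrl cells on day 0, rank 3 on day 1 and rank 1 on the later days. In siKlf5 cells it was at rank 10 on day 0 and rank 5 afterwards, and its share was 1.7% to 10.1%. The 6 other Klf genes added 2.77 to 11.7 FPKM, and the highest of them in each library was Klf12, a Ctbp-binding repressor at 2.43 to 10.6 FPKM. Klf8 had at most 12 reads and was at 0 in 2 libraries. Klf14 had no read in any library. If each read were a separate count, a count of 0 would allow up to 3 reads, or 0.30 to 0.79 FPKM. Since both mates and up to 3 reads per position were counted, the limit can be higher. Klf1, Klf15 and Klf17 were at 0 in 6, 7 and 7 libraries and had at most 3, 4 and 6 reads elsewhere. Klf15, a metabolic regulator of adult muscle, was thus seen only in siKlf5 cells on day 3, with 4 reads.

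**Figure D3:**
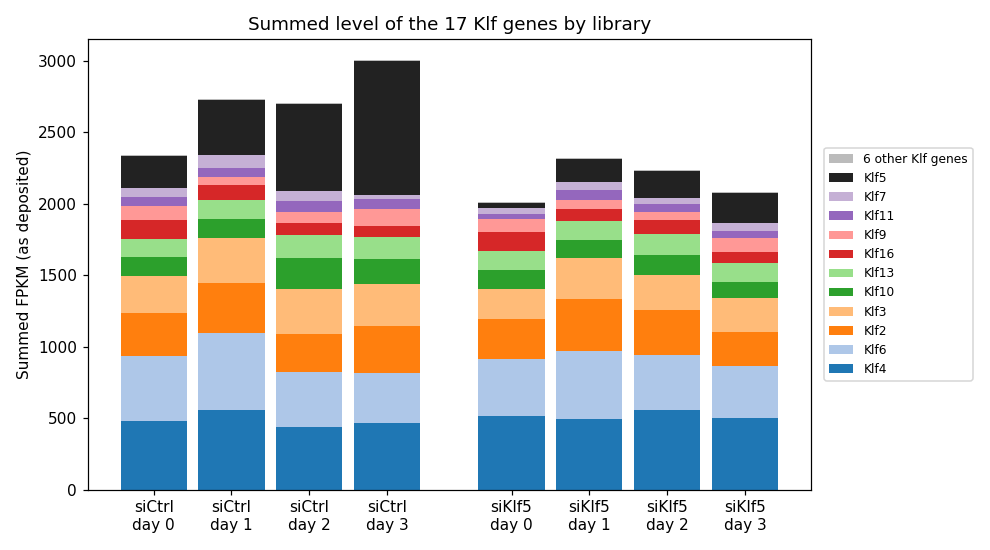
Stacked bars of the FPKM of the 17 Klf genes (y axis, starting at 0) in the 8 libraries (x axis), with Klf5 in black and the 6 other genes in grey at the top. The part below the black segment is between 1862.6 and 2344.4 FPKM high, and the black segment is largest in siCtrl cells on day 3 at 933 FPKM.

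The effect of lowering Klf5 on its relatives was examined over the 4 days, with day as a block. Klf5 was lower in siKlf5 cells by 1.94 on the log2 scale (SE 0.20, 4 of 4 days), and with a limma adjusted p of 0.0244 it was 1 of 8 transcripts called lower, or 0.0559% of those tested, and 1 (0.00699%) was called higher. The Klf5 call was lost when any 1 day was left out (adjusted p = 0.296 to 0.693), with a difference of -1.69 to -2.16. None of the 10 other Klf genes was called in limma, and 3 had an unadjusted p under 0.05, as did 9.6% of all transcripts tested. The median difference of the 10 was -0.11, that of all transcripts 0.01, and 9 of the 10 lay below 0, as did 47.9% of all transcripts. All 10 intervals lay within a 2-fold change in either direction.

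Klf3, Klf10 and Klf11 were those 3. Klf3 was lower on all 4 days, by 0.28 in the fit (SE 0.08, 95% interval -0.46 to -0.10, 0.83-fold, adjusted p = 0.327), with differences of -0.26, -0.13, -0.38 and -0.33 on days 0 to 3. The Klf3 levels of the 2 siRNAs overlapped. Klf11 was lower by 0.45 (SE 0.18, 95% interval -0.86 to -0.04, adjusted p = 0.475), with a difference of -0.91 on day 0 (counting interval -1.50 to -0.37), 0.04 on day 1, -0.46 on day 2 and -0.48 on day 3. Klf10 was lower by 0.33 (SE 0.13, 95% interval -0.64 to -0.02, adjusted p = 0.493). Its difference was -0.07 on day 0 and 0.00 on day 1, against -0.61 on day 2 (counting interval -0.90 to -0.33) and -0.65 on day 3 (counting interval -1.02 to -0.30). Whether the difference varied by day could not be tested with 1 library per siRNA and day. These counting intervals are exact (Clopper-Pearson, 95%). They were taken on the recovered reads divided by 6, since both mates and up to 3 reads per position were counted, and they do not cover differences between cultures. In the other genes the averaged difference was between -0.24 (Klf7) and 0.09 (Klf4). Klf4 was higher on 3 of 4 days, and its interval of -0.13 to 0.30 allows a rise of up to 1.24-fold. Its day 2 difference was 0.34 (counting interval 0.17 to 0.50). Klf2 averaged -0.07 (95% interval -0.33 to 0.19), and its day 3 difference was -0.43 (counting interval -0.76 to -0.11). Klf6, Klf13 and Klf16, at -0.07, -0.05 and -0.07, had intervals of -0.24 to 0.10, -0.28 to 0.18 and -0.34 to 0.20. On day 3 alone their differences were 0.05, -0.22 and 0.03, with counting intervals that included 0. The study's own quantitative PCR on day 3, on biological replicates, gave modest but significant increases of Klf6, Klf13, Klf15 and Klf16 after Klf5 knockdown. It gave decreases of Klf10 and Klf11.

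Past 1.5-fold in a single day, which is a description and not a test, were 1 gene on day 0 (Klf11), 1 on day 1 (Klf7), 2 on day 2 (Klf7 and Klf10) and 2 on day 3 (Klf7 and Klf10). Of all tested transcripts 20.4%, 27.4%, 20.7% and 23.3% did so on days 0 to 3. Among transcripts averaging 30 FPKM or more, as these 10 genes do, the shares were 6.73%, 13.8%, 6.67% and 8.88%. Klf7 accounts for 3 of the 6 passes, with counting intervals that included 0 on each day. Those of Klf10 and Klf11 did not include 0.

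**Figure D4:**
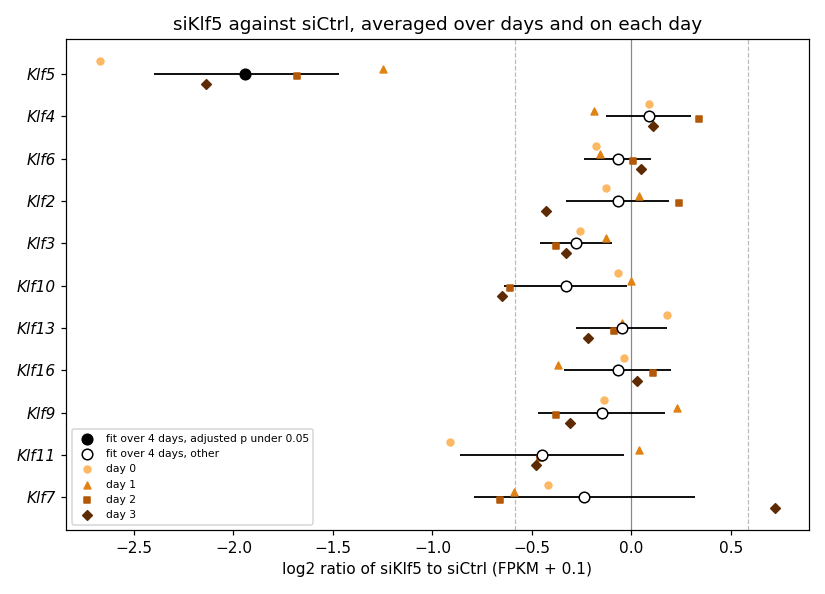
log2 ratio of siKlf5 to siCtrl, with 0.1 added to each FPKM (x axis), for Klf5 and the 10 other genes (y axis). Large circles with bars are the fit over 4 days with its 95% interval, filled where the adjusted p was under 0.05, small symbols are single days, and dashed lines mark 1.5-fold. Klf5 is the only filled circle, and the circles of Klf3, Klf10 and Klf11 have bars left of 0.

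The relatives and partners of these factors were read from lists of genes. Their counts between day 0 and day 3 stand beside 12.8% of all tested transcripts called higher and 17.6% called lower in the same comparison, and nothing particular to a list is read from them. Of 9 Sp genes, which share the zinc fingers of the Klf family, 6 were tested. Of these, 2 fell and none rose between day 0 and day 3. Sp8 was at 30.8 and 36.9 FPKM on day 0 in siCtrl and siKlf5 cells and between 5.23 and 6.87 FPKM in the 6 later libraries, a log2 difference of -2.59 (SE 0.51, adjusted p = 0.00725). Sp3 fell by 0.46 (SE 0.11, adjusted p = 0.0176), from a mean of 211 to 154 FPKM. Sp1, Sp2, Sp4 and Sp6 had differences of -0.40, -0.61, 0.02 and -1.57 that did not pass. No Sp gene was called between siRNAs.

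Of 9 genes around the ERK5 cascade, which lies upstream of Klf2 and Klf4, 4 rose and 1 fell between day 0 and day 3. Mef2c, a muscle transcription factor that ERK5 activates, rose by 3.75 (SE 0.21, adjusted p = 1.56e-05) and its relatives Mef2a and Mef2d by 0.89 and 0.70 (adjusted p = 0.000872 and 0.00409). Npnt, an extracellular matrix gene, rose by 1.00 (adjusted p = 0.00126), and the kinase gene Map3k3 fell by 0.75 (adjusted p = 0.0133), while Mapk7, which encodes ERK5 itself, had a difference of -0.25 (adjusted p = 0.27). Npnt was lower in siKlf5 cells on all 4 days, by 0.72 (SE 0.10, adjusted p = 0.0727), without passing.

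Of 9 corepressor genes 3 fell and 1 rose between day 0 and day 3. Ctbp2, a partner of Klf3 and Klf12, fell by 0.93 (SE 0.16, adjusted p = 0.00383), Hdac1 by 0.77 (adjusted p = 0.00129) and Sin3a by 0.68 (adjusted p = 0.00844), while Sin3b, the paralog of Sin3a, rose by 0.34 (adjusted p = 0.0461) and Hdac3 was at -0.35 (adjusted p = 0.0528). Of 4 coactivator genes, the acetyltransferase gene Kat2a fell by 0.75 (adjusted p = 0.0032) and Kat2b rose by 0.47 (adjusted p = 0.0361), while Ep300 and Crebbp, at -0.00 and -0.09, did not pass.

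Klf10 and Klf11 belong to the early response to TGF-beta, and Klf9 to that of glucocorticoids. Of 12 other genes of the TGF-beta response 5 fell and 3 rose between day 0 and day 3, and among those that fell were Id2, Id3 and Id1, which block MyoD dimers, with differences of -1.49, -1.35 and -1.22 (adjusted p = 0.000515, 0.00713 and 0.00383). Of 10 glucocorticoid-responsive genes 9 were tested, of which 1 rose and 3 fell. Tsc22d3 rose by 1.25 (SE 0.13, adjusted p = 0.000335), Ddit4 fell by 1.09 (adjusted p = 0.00225) and Fkbp5 by 0.94 (adjusted p = 0.0151), while Sgk1, at -0.76, did not pass. None of the genes of these 5 lists was called between siRNAs.

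For each of the 10 genes, the 2 transcripts with the most similar pattern over the 8 libraries were looked up among 11590 others averaging 10 FPKM or more. None of these 20 transcripts was one of the 10 genes. Pearson's r was between 0.913 and 0.99, with 8 points that share the course of differentiation and the choice of the best of many. Klf16 was most like Timm23 and Ddah1 (r = 0.99 each), Klf9 like Xpo6 (0.972) and Fut11 (0.926), Klf6 like Cd276 (0.974) and Fah (0.966), and Klf3 like Pold4 (0.976) and Sv2b (0.956). Klf2 was most like Stx4a (0.931) and Myadm (0.92), Klf4 like Afg3l2 (0.961) and Mvk (0.913), and Klf7 like Smad2 (0.979) and Apbb2 (0.946). Klf10 was most like Supt7l (0.953) and Cdc42se2 (0.928), Klf11 like Fndc3a (0.936) and Zfp202 (0.931), and Klf13 like Mrps14 (0.971) and D930015E06Rik (0.957). Within the 10 genes the highest value was 0.90 between Klf3 and Klf11 and the lowest -0.65 between Klf4 and Klf10. With Klf5 the values lay between -0.557 (Klf16) and 0.834 (Klf3).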

How the data were processed

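RNA-seq of 8 libraries was used. Per the labels and the study's methods, the authors aligned paired-end reads to mm9 with STAR and counted exon reads of both strands with HOMER, with at most 3 reads per position. For each gene 1 transcript was retained. The authors deposited the result as FPKM and as log2 values, which add 1 and a random number between 0 and 1 and served only in 1 alternative. 1 log2 column that names no day was not used. Reads were recovered from the FPKM steps, and 100% of the values checked lay within 0.1 of a whole number.

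log2(FPKM + 0.1) was fitted with limma 3.58.1 (R 4.3.3, trend, Benjamini-Hochberg adjustment over 14312 transcripts) with siRNA and day as additive terms and 3 residual degrees of freedom. The residual thus holds library noise and any siRNA effect that differs by day, and nothing says that the libraries come from separate cultures. Calls have an adjusted p under 0.05. The calculation was tested on simulated data with independent noise and changes larger than those of the 10 genes. That test does not cover differences as small as theirs or siRNA effects that differ by day. Promoter letters were read from the mm9 genome with Python 3.11.15. The genes named outside the 10 are, per list, at most 4, those with the largest difference between days 3 and 0 (1 is not reported here), and Mef2d, Mapk7 and Sin3b were added after their values were seen. The genes and lists were chosen with earlier results of these data known.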

Additional observations from a re-analysis of the deposited data

Results flagged for a closer look

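Klf7 moved in opposite directions between siRNAs on different days. Its log2 ratio of siKlf5 to siCtrl was -0.59 on day 1 and -0.66 a day later, against 0.72 on day 3, each past 1.5-fold. The difference between days was not tested, since each siRNA and day has 1 library. The counting intervals, -1.55 to 0.34, -1.53 to 0.13 and -0.31 to 1.77, all included 0, on 89 to 301 reads.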

How the results depend on the processing

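Of 601 values of the 10 genes and Klf5 recomputed under other pseudocounts, filters, scalings, terms and left-out days, 22 turned sign and 22 changed their side of the threshold, 20 of them by losing a call. Klf16 kept its day 3 call except without a filter on low values (adjusted p = 0.065), where 0 of the 10 genes passed and 2161 transcripts in place of 4347. Without that filter the day 1 calls numbered 653 in place of 2397, those of day 3 against day 1 95 in place of 807, with 0 of the 10 genes, and those between siRNAs 0 in place of 9. On day 1, 1 of the 10 genes passed with upper-quartile and 1 with median-ratio scaling. Without the siRNA term 488 transcripts and 1 of the 10 genes (Klf6) passed between day 3 and day 1. With no replicate block, that is without day as a term, 1 transcript was called between siRNAs and Klf5 was not (adjusted p = 1). Leaving out a day gave 0 to 0 calls between siRNAs, so that Klf5 lost its call, 1001 to 1176 on day 1, and 0 to 131 between day 3 and day 1, with 0 to 0 of the 10 genes.

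None of the values that turned sign was called. Of the 22, 9 were differences between days within 1 siRNA, which have no test. The widest was Klf7 between day 3 and day 0, at -0.30 averaged, -0.87 in siCtrl and 0.27 in siKlf5 cells, and Klf10 was at 0.04 averaged and -0.25 in siKlf5 cells. Another 4 were ratios on day 1 alone, of Klf2 and Klf11, at 0.04 as deposited and -0.02 with either scaling. With upper-quartile and median-ratio scaling, the day 1 difference of Klf10 was 0.10 and 0.08, while day 3 differences were 0.05 and 0.07 for Klf2 and 0.05 and 0.08 for Klf4. Between siRNAs, leaving out a day gave -0.17 to 0.05 for Klf2 and -0.12 to 0.01 for Klf13, both highest without day 3, and -0.13 to 0.03 for Klf16, highest without day 1. At 2-fold, 0 of the 10 genes passed on any of the 4 days. Either scaling left 1 of 2 past 1.5-fold on day 2, which was Klf7, while Klf10 no longer passed. The deposited log2 columns could not be used for day 1 or for the comparison over all days. Causes were not tested. The depth of siCtrl day 2 was the highest, and low genes such as Klf7 carry the widest intervals.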

Other observations

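The quantitative PCR primers that the study lists for the 10 genes were matched exactly to annotated mouse coding transcripts. All 10 pairs matched transcripts of their own gene and of no other. The pair listed for Klf1 has the same letters as that for Klf13 and matched Klf13 alone, a gene at a mean of 139 FPKM here, where Klf1 had at most 3 reads.

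Klf7 overlaps the antisense gene Gm13748 by 4 bases of exon, and both strands were counted. No other annotated exon overlapped the exons of the 10 genes.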
